A study of Sus scrofa with 35 samples.

Results

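The transcripts of the HSP90 chaperones and of the proteins that assist them were examined in whole blood of heat-exposed pigs. Members were all probes whose gene name in the scanner files was HSP90AA1, HSP90AB1, HSP90B1, TRAP1, AHSA1, STIP1, CDC37, PTGES3, FKBP4 or SUGT1. This rule found 33 of the 60305 probes on the array, and 32 of them had a row among the 39072 in the authors' table of log2 values, which was used throughout. The probes covered 9 of the 10 genes, since 0 probes carried the name STIP1. HSP90B1 had 10 probes (9 in the table), HSP90AA1 8, AHSA1 5, FKBP4 3, CDC37 2 and TRAP1 2, whereas HSP90AB1, PTGES3 and SUGT1 had 1 each. The 32 probes held 31 distinct sequences, because O8902 and A_72_P525187 of HSP90AA1 were the same 60 bases.

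Blood was taken from 35 castrated growing pigs, with 1 array per pig. Creole (CR) pigs, Large White (LW) pigs and their crossbreds (F1) were slaughtered either in thermoneutral conditions (TN, 24 °C in the labels) or under heat stress (HS, 30 °C in the sample labels and 32 °C in the protocol text, for 5 days or, per the study's methods, a day less in some pigs). There were 5 CR TN pigs and 6 pigs in each of the groups CR HS, F1 TN, F1 HS, LW TN and LW HS. All TN pigs were slaughtered before the temperature was raised and all HS pigs after it, so day and climate cannot be told apart. Per the study's methods, pigs came in blocks of littermates that were spread over the pens and both climates, and its model held pen, day, father and mother. The labels name none of these, so pigs were treated here as independent, and p-values can be too small where penmates or pigs of a day were alike.

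HSP90 proteins are ATP-driven chaperones that bind client proteins late in folding, many of them kinases and steroid receptors. HSP90AA1 is the stress-inducible and HSP90AB1 the constitutive form of the cytosol, HSP90B1 works in the endoplasmic reticulum and TRAP1 in mitochondria. Co-chaperones steer the cycle: CDC37 brings kinases, AHSA1 stimulates the ATPase, PTGES3 stabilises the closed, client-bound state, FKBP4 joins steroid receptor complexes, SUGT1 links HSP90 to immune sensors and ubiquitin ligases, and STIP1 passes clients on from HSP70. In white blood cells, HSP90B1 is required for the surface display of many Toll-like receptors and integrins.

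Between 55.2% and 68.0% of the probes of an array were well above background, with the lowest range in F1 TN pigs (55.2% to 63.9%). The array of CR HS pig 1 stood apart, with a correlation of 0.964 to the mean of the other CR HS pigs over the whole table. This pig had the lowest value of its group for 29 of the 32 member probes, and LW HS pig 1 had the lowest of its group for 24 of 32. The arrays lay on 5 slides with 4 to 8 arrays each, and both of these pigs were on slide 1. Of the other pigs on slide 1, CR TN pig 2 was the lowest of its group for 20 probes, LW TN pig 1 for 19 and CR TN pig 1 for 5. F1 TN pig 1 and F1 HS pigs 1 and 2, also on slide 1, were lowest for 13 each. The part of the slide in these low values was not tested. Without CR HS pig 1, 23 member probes passed the test of HS against TN described further on instead of 13, and without LW HS pig 1, 22 did. Calls over the whole table in these fits are not given here, so the change is not read as particular to the members. Markers of blood cells moved with climate as well. In the comparison of HS with TN, 0 of 13 measured erythroid genes were higher and 6 were called lower, with a median log2 difference of -0.51, and of 7 neutrophil genes 0 were higher (median -0.33) and 1 was called lower. Of all gene names 24.1% were called higher and 16% lower. Higher calls were made for 4 of 11 T cell genes, 2 of 5 B cell genes and 2 of 6 monocyte genes. No platelet or cytotoxic cell gene was called (0 of 4 and 0 of 5). In whole blood, fewer cells of a type and less RNA per cell cannot be told apart, and the part of these cells in the results that follow was not tested.

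Probe sequences are printed 5′ to 3′ as in the scanner files for the cases in which probes of a gene differed. The files place them on no chromosome. For TRAP1, the probes moved in opposite directions and shared no stretch of 20 bases with each other or with any other probe on either strand. These overlaps therefore do not settle which strand either probe reads. No TRAP1 protein or transcript sequence was compared with the probes, and O10647 may not read the TRAP1 mRNA:
TRAP1 A_72_P063446: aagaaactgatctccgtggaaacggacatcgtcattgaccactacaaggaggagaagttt
TRAP1 O10647: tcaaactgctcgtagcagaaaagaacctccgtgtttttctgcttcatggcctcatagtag

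For HSP90AA1, the first and second sequences below belong to probes that moved together over the pigs, and the last, present under the names A_72_P525187 and O8902, to a probe that followed them little:
HSP90AA1 A_72_P634756: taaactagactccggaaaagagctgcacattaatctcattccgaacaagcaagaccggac
HSP90AA1 A_72_P700356: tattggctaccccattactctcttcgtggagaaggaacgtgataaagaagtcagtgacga
HSP90AA1 A_72_P525187: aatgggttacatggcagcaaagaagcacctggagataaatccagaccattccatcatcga

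Some probes of a gene were printed on opposite strands. The HSP90B1 probe O7995, which has no row in the table, carries the reverse complement of 39 bases of CUST_304_PI427286967 (in capitals):
HSP90B1 CUST_304_PI427286967: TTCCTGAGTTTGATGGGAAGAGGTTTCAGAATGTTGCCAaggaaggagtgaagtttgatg
HSP90B1 O7995: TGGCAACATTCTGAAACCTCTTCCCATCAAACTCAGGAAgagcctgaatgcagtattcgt

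The one probe named HSP90AB1, O14652, likewise carries the reverse complement of 30 bases of A_72_P051491, of which only these bases are shown. A_72_P051491 is named HSPCB, an older symbol of HSP90AB1 that the rule does not take in:
HSP90AB1 O14652: AATAAAACCACTAGACATCAGCAGAGGAGA
HSPCB A_72_P051491: TCTCCTCTGCTGATGTCTAGTGGTTTTATT

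Across breeds, transcripts of the family were mostly higher under HS, by modest amounts. Of the 32 probes, 31 were higher in HS than in TN pigs, 13 were called higher (40.6%) and 0 lower at an adjusted p < 0.05 (limma, additive model of breed and climate, Benjamini-Hochberg over all 39072 probes). Of all probes tested, 34.8% were called, 20.1% higher and 14.7% lower. The median log2 difference was 0.23 over the members and 0.06 over all probes, of which 59.8% were higher in HS. At an unadjusted p < 0.05, 22 member probes passed, as did 46% of all probes. The 13 probes were 6 of HSP90B1, 3 of HSP90AA1, 2 of CDC37, 1 of FKBP4 and 1 of TRAP1. Probes of 1 gene name are not independent members, so the same comparison was also made on 1 mean per gene name, although some of these probes ran apart or lay on opposite strands. Of the 9 genes, 4 were then called higher (CDC37, HSP90AA1, FKBP4 and HSP90B1; 44.4%), against 40.1% of 11400 gene names called, 24.1% of them higher. With a mean of erythroid markers as covariate, 0 of the 32 probes were called, where 33 probes of the whole table were. By gene, 1 member, CDC37, was called with the covariate, and the calls over all gene names are not given here for it. The differences themselves were then 0.50 for TRAP1 A_72_P063446, 0.39 for HSP90AA1 A_72_P700356, 0.33 for HSP90B1 A_72_P588721 and 0.19 for CDC37 O10097, against 0.54, 0.38, 0.37 and 0.23 without the covariate. Without F1 pigs, 0 probes and 0 genes were called, of members or of any other gene, with 0.42, 0.37, 0.22 and 0.16 for the same probes. FKBP4 A_72_P352858, not called over all breeds at 0.22, was at 0.085 with the covariate and at 0.017 without F1 pigs.

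**Figure D1:**
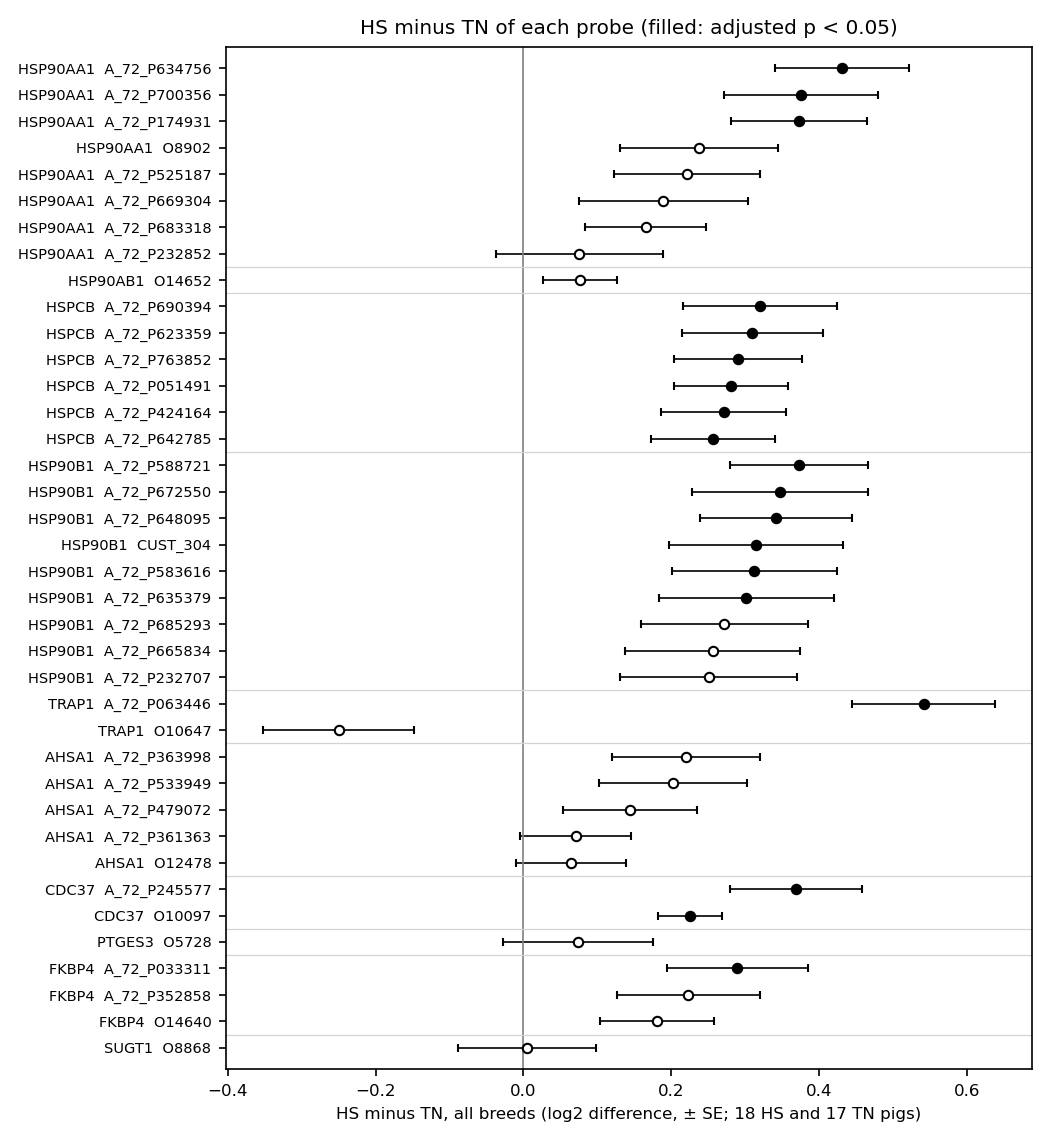
Log2 difference HS minus TN over all breeds (x axis, bars ± SE, 18 HS and 17 TN pigs) of the 32 member probes and of the 6 probes named HSPCB, grouped by gene on the y axis. Filled points passed an adjusted p < 0.05; TRAP1 O10647 at -0.25 is the one probe left of 0.

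HSP90AA1, the inducible cytosolic form, was read by 8 probes, of which A_72_P700356 was the brightest. In TN pigs this probe gave 12.55, 12.79, 12.79, 13.00 and 13.07 in CR, 12.56 to 13.45 with a median of 13.19 in F1 and 12.55 to 13.51 with a median of 13.17 in LW. In HS pigs it read 12.42 to 13.62 (median 13.07) in CR, 13.27 to 13.91 (median 13.42) in F1 and 13.29 to 14.02 (median 13.57) in LW. The medians were higher in HS in every breed, while HS and TN values overlapped in each of them. The difference HS minus TN was 0.38 ± 0.10 (SE) on the log2 scale, with an adjusted p of 0.0070 in limma, and 16 of 18 HS pigs lay above the TN mean of their breed. Probe A_72_P634756 gave 0.43 ± 0.09 (adjusted p = 0.00165), with 17 of 18 HS pigs above the TN mean. In F1 pigs its HS values (10.46 to 11.11) all exceeded the TN values (9.96 to 10.43).

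The 8 HSP90AA1 probes were unequal reporters. The third one called, A_72_P174931, rose by 0.37 ± 0.09 (adjusted p = 0.0036), and the remaining 5 gave 0.08 to 0.24 with adjusted p of 0.0763 to 0.618. Correlations between the 8 probes over the 35 pigs ran from 0.07 to 0.96 with a median of 0.35. A_72_P174931, A_72_P634756 and A_72_P700356 had mutual correlations of 0.89 to 0.96. A_72_P683318 and the identical pair A_72_P525187 and O8902 formed a further set with 0.82 to 0.96. The copies of 1 sequence reached 0.96 with each other, and correlations between the sets were 0.21 to 0.43. In LW pigs the first set differed by 0.40 to 0.53 between HS and TN and the second by -0.02 to 0.02, whereas in CR pigs the sets gave 0.21 to 0.27 and 0.24 to 0.31. These sets were formed after the values were seen and were not tested against each other. Among HSP90AA1 and HSPCB probes, 1 pair matched at 75% or more of its aligned bases, without gaps and at the same strand. This was A_72_P174931 with A_72_P424164, over 49 bases with 12 mismatches. Pairs with a lower share of matching bases were not kept.

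**Figure D2:**
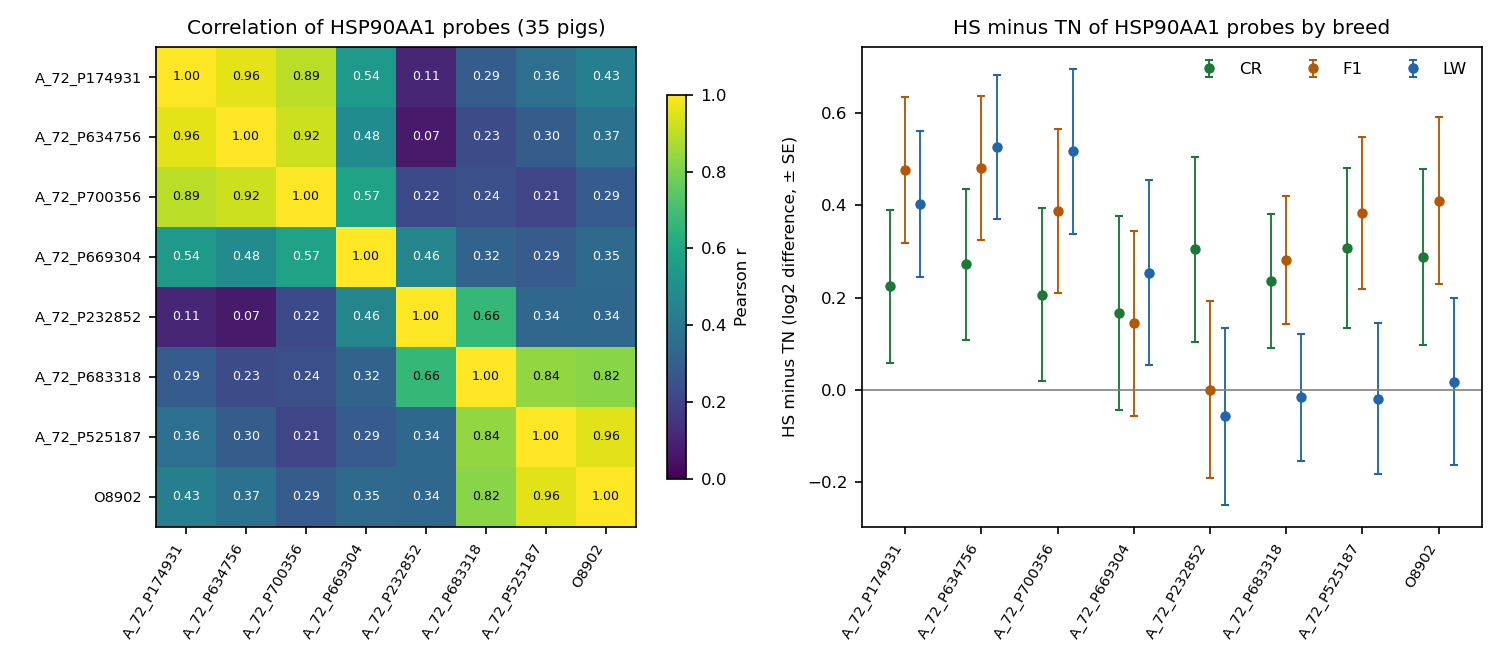
Left, Pearson correlation over 35 pigs between the 8 HSP90AA1 probes (colour and printed value, 0.07 to 0.96 off the diagonal). Right, log2 difference HS minus TN of each probe (y axis, ± SE) in CR, F1 and LW pigs, where A_72_P634756 and A_72_P700356 exceed 0.50 in LW pigs and A_72_P683318 and A_72_P525187 lie at -0.02.

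HSP90AB1, the constitutive cytosolic form, had a single probe, O14652, which was dim. The files assign A_72_P051491 to the HSPCB mRNA, and O14652 carries 30 of its bases in reverse complement. O14652 may therefore not read the HSP90AB1 mRNA, and its values may not give the level or the change of that mRNA. Group means ran from 5.60 to 5.77 and the table's lowest value was 4.60, although the scanner software called the probe well above background on all 35 arrays. The values of HS and TN pigs overlapped in every breed, and HS minus TN was 0.08 ± 0.05 (adjusted p = 0.232). The order of the groups, from LW HS (5.77) over CR HS, F1 TN, F1 HS and LW TN to CR TN (5.60), held no neighbours that differed by more than the SD within groups.

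The 6 probes named HSPCB behaved otherwise. A_72_P051491, which holds the 30 bases on the other strand, read 13.80, 13.81, 13.88, 13.96 and 14.23 in CR TN pigs, 13.54 to 13.96 (median 13.76) in F1 TN pigs and 13.89 to 14.30 (median 14.04) in LW TN pigs. Under HS it read 13.44 to 14.47 (median 14.35) in CR, 14 to 14.44 (median 14.16) in F1 and 13.96 to 14.43 (median 14.17) in LW. Only in F1 pigs did the groups not overlap. All 6 HSPCB probes were called higher in HS, by 0.26 to 0.32, and their gene mean rose by 0.29 ± 0.08 (adjusted p = 0.0041). Counted under HSP90AB1, as decided after the names were seen, they raised that gene's difference to 0.26 (adjusted p = 0.0039) and the number of members called by gene to 5 of 9. The mean of 0.26 still held O14652. The level of O14652 is not set against that of A_72_P051491, as different probes are not on a common scale.

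**Figure D3:**
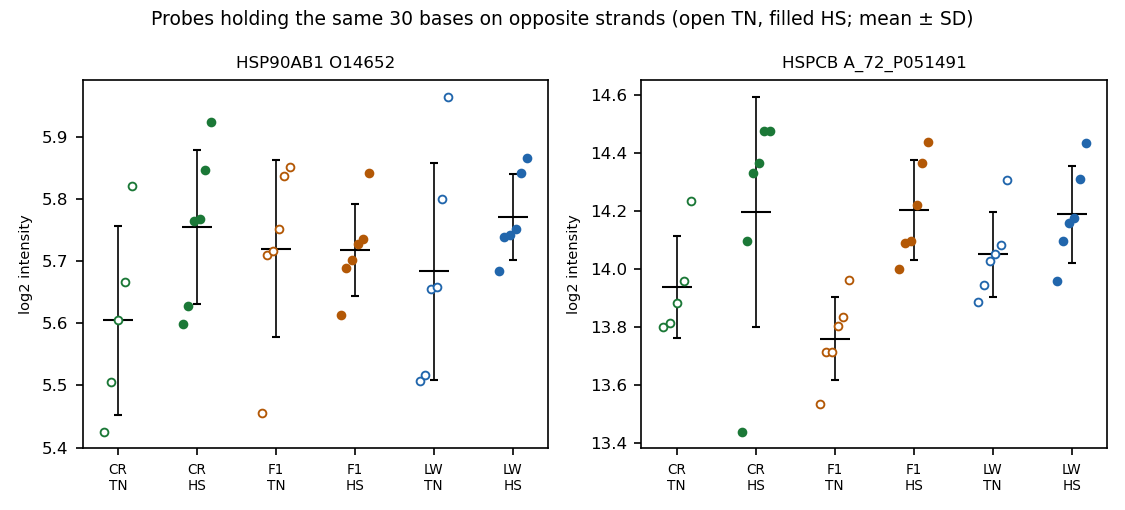
Log2 intensity by pig (y axis) in the 6 groups (x axis; open TN, filled HS; bars mean ± SD) of HSP90AB1 O14652, left, and HSPCB A_72_P051491, right. The right panel shows the F1 HS pigs at 14 and above and the F1 TN pigs at 13.96 and below; the left panel shows all groups overlapping, and its y axis has another range.

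HSP90B1, the chaperone of the endoplasmic reticulum, was measured by 9 probes that ran closely together, with correlations of 0.82 to 0.99 over the pigs. The brightest, A_72_P588721, read 11.75, 11.78, 11.90, 11.92 and 12.45 in CR TN pigs, 11.46 to 12.13 (median 11.59) in F1 TN pigs and 11.72 to 12.31 (median 11.93) in LW TN pigs. HS pigs read 11.82 to 12.69 (median 12.33) in CR, 12.07 to 12.54 (median 12.32) in F1 and 11.71 to 12.42 (median 12.18) in LW. F1 TN pigs were the lowest group, with all but 1 pig at 11.63 or less. The difference HS minus TN was 0.37 ± 0.09 (adjusted p = 0.0039), and the 9 probes ranged from 0.25 to 0.37 with 6 of them called. Within breeds, all 9 probes were called higher in F1 pigs, by 0.52 to 0.66 (adjusted p from 0.00145 to 0.0347), while they gave 0.25 to 0.37 in CR pigs and -0.09 to 0.15 in LW pigs with 0 called. In F1 pigs 38.7% of all probes were called, 20.8% higher, and in CR and in LW pigs 0 of 39072 were. Probes that run this closely together are not 9 separate results. The opposite-strand probe O7995 had group means of 5.04 to 5.20 and was well above background on 6 of 35 arrays.

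TRAP1, the mitochondrial form, showed the largest difference of any member probe. A_72_P063446 read 7.38, 7.39, 7.63, 7.64 and 7.79 in CR TN pigs, 6.55 to 7.46 (median 6.85) in F1 TN pigs and 6.72 to 7.24 (median 6.84) in LW TN pigs. Under HS it read 7.0 to 8.28 (median 8.04) in CR, 7.32 to 7.93 (median 7.75) in F1 and 7.15 to 7.69 (median 7.36) in LW. Values were higher in CR pigs and under HS, with overlap of HS and TN in each breed, and 17 of 18 HS pigs exceeded the TN mean of their breed. HS minus TN was 0.54 ± 0.10 (adjusted p = 0.00159), with 0.78 ± 0.16 in F1 pigs (adjusted p = 0.00059), 0.32 ± 0.17 in CR pigs and 0.50 ± 0.16 in LW pigs. The probe was also the one member called between breeds. CR minus LW was 0.57 ± 0.12 (adjusted p = 0.0083), where 1.08% of all probes were called, 0.571% higher and 0.507% lower.

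The other TRAP1 probe, O10647, was dim and passed the scanner software's background test on 27 of 35 arrays. Its group means were 5.63 to 5.86 in TN and 5.48 to 5.52 in HS pigs, with a single F1 TN pig at 6.97. HS minus TN was -0.25 ± 0.10 and did not pass the test (adjusted p = 0.0554), but was -0.68 and called lower with the processed signal scaled on the 75th percentile, and 2 of 18 HS pigs lay above the TN mean of their breed. It passed (-0.28 to -0.26) when any one of 8 pigs was left out, namely CR TN pig 1, CR HS pigs 1 and 4, F1 TN pigs 1 and 2, LW TN pigs 1 and 5 and LW HS pig 5. The TRAP1 probes had a correlation of -0.08 over the 35 pigs. Their mean, 0.15 (adjusted p = 0.137), therefore describes neither of them and may mix strands, and it was called without F1 TN pig 3 (0.20, adjusted p = 0.0164). Over 16 alternative settings the TRAP1 gene value ran from -0.012 to 0.54 and was called in 4 of them. The 0.54 is the value of the brightest probe alone.

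**Figure D4:**
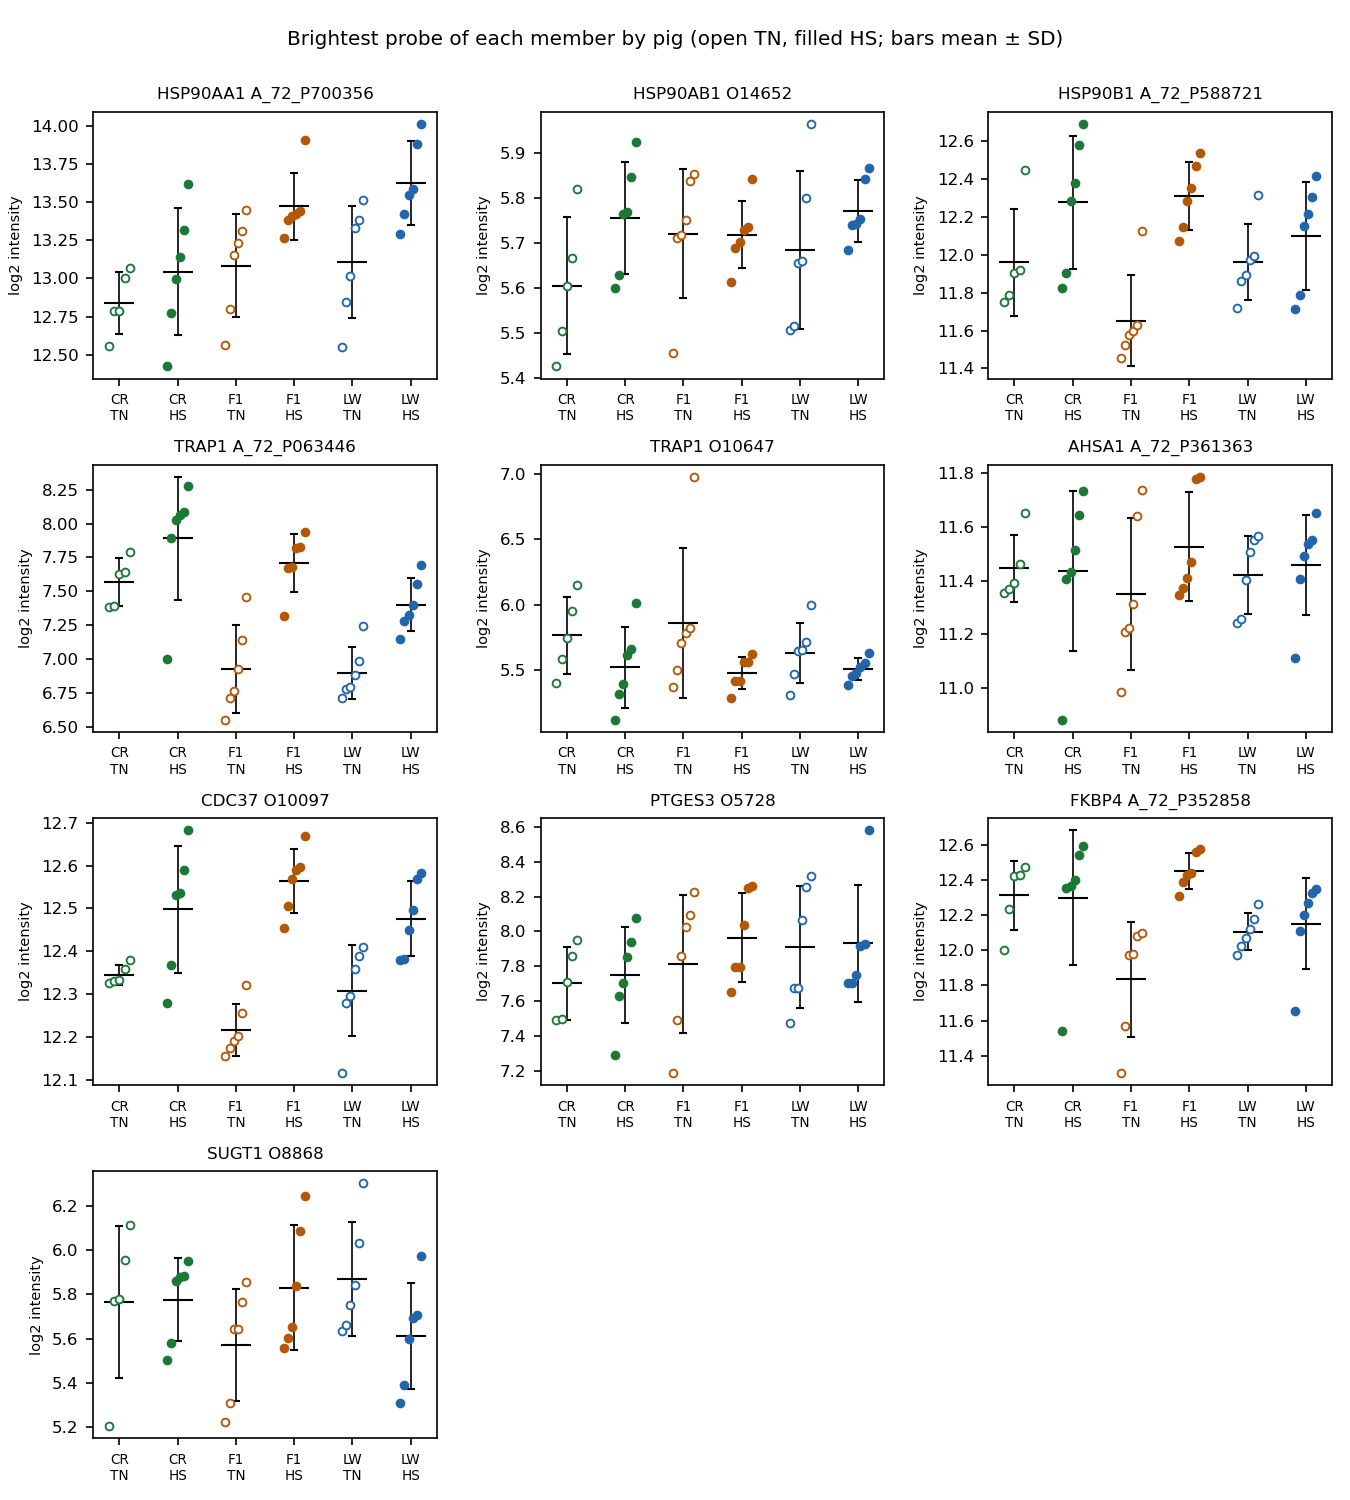
Log2 intensity by pig (y axis) in the 6 groups (x axis; open TN, filled HS; bars mean ± SD; 5 CR TN pigs and 6 in every other group) for the brightest probe of each member and for TRAP1 O10647. CDC37 O10097 and FKBP4 A_72_P352858 show F1 HS pigs (12.46 and 12.31 or more) above all F1 TN pigs (12.32 and 12.10 or less).

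Of the co-chaperones, CDC37, which hands kinases to HSP90, was called higher by both of its probes. O10097 read 12.33, 12.33, 12.33, 12.36 and 12.38 in CR TN pigs, 12.16 to 12.32 (median 12.20) in F1 TN pigs and 12.12 to 12.41 (median 12.33) in LW TN pigs. HS pigs read 12.28 to 12.68 (median 12.53) in CR, 12.46 to 12.67 (median 12.58) in F1 and 12.38 to 12.58 (median 12.47) in LW. The F1 groups did not overlap, and 17 of 18 HS pigs were above the TN mean of their breed. HS minus TN was 0.23 ± 0.04 (adjusted p = 0.00159) for this probe and 0.37 ± 0.09 (adjusted p = 0.0031) for A_72_P245577. As a gene mean CDC37 rose by 0.30 ± 0.06 (adjusted p = 0.0012), and within the 4 slides that allowed the comparison the gene differed by 0.19 to 0.45. The other genes called were less even over these slides. HSP90AA1 differed by 0.003 to 0.39, FKBP4 by -0.002 to 0.31 and HSP90B1 by 0.10 to 0.51, each with its lowest value on slide 1.

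FKBP4, a prolyl isomerase of steroid receptor complexes, rose as a gene mean by 0.23 ± 0.08 (adjusted p = 0.022), with A_72_P033311 called (0.29 ± 0.10, adjusted p = 0.0192) and O14640 and A_72_P352858 not (0.18 and 0.22, adjusted p = 0.0654 and 0.0687). A_72_P352858 read 12, 12.23, 12.42, 12.43 and 12.48 in CR TN pigs, 11.30 to 12.10 (median 11.98) in F1 TN pigs and 11.97 to 12.26 (median 12.10) in LW TN pigs. HS pigs read 11.54 to 12.59 (median 12.38) in CR, 12.31 to 12.58 (median 12.43) in F1 and 11.65 to 12.35 (median 12.23) in LW. F1 TN pigs were low and did not overlap with F1 HS pigs, while the other breeds overlapped widely. Within F1 pigs this probe rose by 0.62 ± 0.15 (adjusted p = 0.00198), against -0.01 ± 0.15 in CR and 0.04 ± 0.15 in LW pigs. Over all breeds it passed the test without CR HS pig 1 and without LW HS pig 1, the lowest pigs of their groups.

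AHSA1, the activator of the HSP90 ATPase, had 0 of 5 probes called, with differences of 0.06 to 0.22 and a gene mean of 0.14 ± 0.08 (adjusted p = 0.167). PTGES3 differed by 0.07 ± 0.10 (adjusted p = 0.588) and SUGT1 by 0.00 ± 0.09 (adjusted p = 0.975). The SUGT1 probe O8868 was dim, with group means of 5.57 to 5.87, and was well above background on 3 of the 6 F1 TN arrays. For these 3 genes the values of HS and TN pigs overlapped in each breed.

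The next comparison was made within each breed. In F1 pigs 16 of the 32 probes were called higher (50%) and 0 lower, where 38.7% of the table was called, 20.8% higher. They were all 9 HSP90B1 probes, 2 of CDC37, 2 of FKBP4, 2 of HSP90AA1 and A_72_P063446 of TRAP1. In CR and in LW pigs 0 members and 0 of the 39072 probes were called in limma. At an unadjusted p < 0.05, 2 member probes passed in CR and 5 in LW pigs, with 8.87% and 8.71% of the table. Members were higher in HS for 28 probes in CR (median 0.24), 30 in F1 (median 0.40) and 22 in LW pigs (median 0.05). Of all probes, 56.1% were higher in CR (median 0.03), 62.9% in F1 (median 0.13) and 52.7% in LW pigs (median 0.01). HS and TN values did not overlap for 3 of 32 probes in F1 pigs (9.38%, against 3.59% of the table with HS above TN and 8.08% with HS below TN), namely CDC37 O10097, FKBP4 A_72_P352858 and HSP90AA1 A_72_P634756, and for 0 members in CR and LW pigs (0.417% and 0.683% of the table with HS above TN). The erythroid markers were lower under HS at the median, with HS minus TN of -0.82 in F1, -0.44 in CR and -0.26 in LW pigs. Their mean level was 9.28 to 11.16 in F1 TN and 8.38 to 9.77 in F1 HS pigs. A link of these markers with the member differences was not tested. With the mean of the erythroid markers as covariate, 4 member probes were called in F1 pigs, and 4291 of all probes.

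These effects were not shown to differ between breeds. The interaction of breed and climate passed for 0 of 32 probes and 0% of the table, and at an unadjusted p < 0.05 for 1 member, FKBP4 A_72_P352858 (adjusted p = 0.278), against 14.9% of the table. The effect of HS was larger in F1 than in LW pigs by 0.46 to 0.64 for the HSP90B1 probes, of which 7 had an unadjusted p < 0.05, with the smallest adjusted p at 0.155. For F1 against LW, 9 members passed unadjusted, as did 22.7% of the table, and the smallest adjusted p of a member was 0.128. For F1 against CR, 1 member and 11.8% of the table passed unadjusted, and for LW against CR, 0 members and 1.79%.

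**Figure D5:**
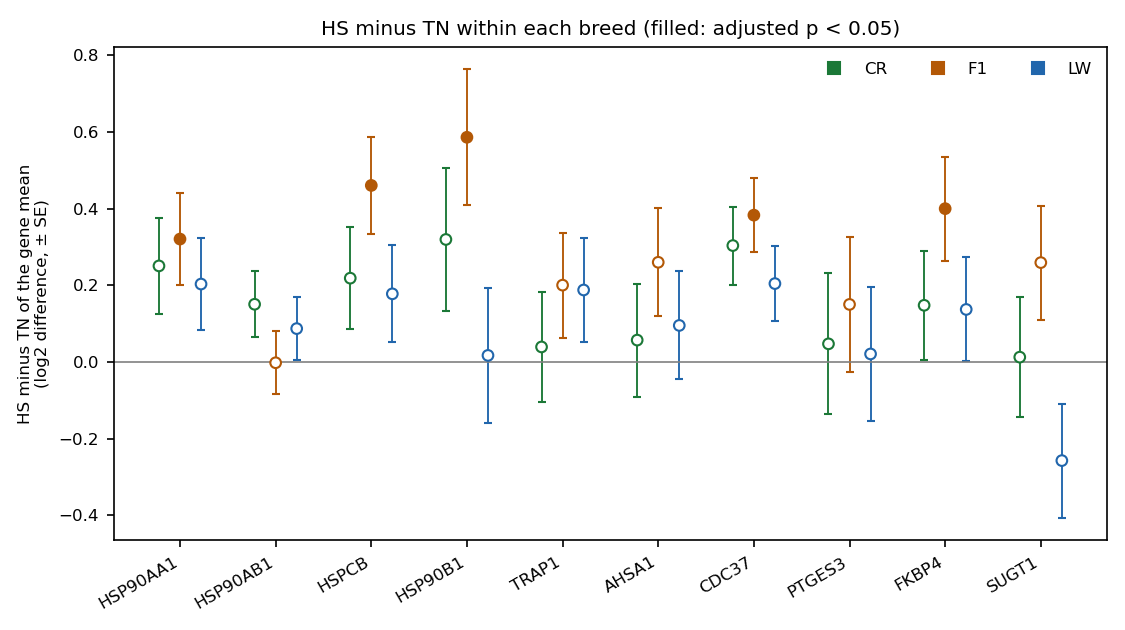
Log2 difference HS minus TN of the gene mean (y axis, ± SE) within CR, F1 and LW pigs for the 9 measured members and HSPCB (x axis). Filled points passed an adjusted p < 0.05, which occurred in F1 pigs for HSP90AA1, HSPCB, HSP90B1, CDC37 and FKBP4; HSP90B1 lies at 0.02 in LW pigs.

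Between breeds, apart from TRAP1, no member was called. For F1 minus CR and F1 minus LW, 0 of 32 probes passed in limma, where 0.184% of the table did for F1 minus CR (0.107% higher, 0.0768% lower) and 0.0256% for F1 minus LW (0.00768% higher, 0.0179% lower). At an unadjusted p < 0.05, 5 members passed for F1 minus CR, with 4.95% of the table, and 0 for F1 minus LW, with 4.48%. HSP90AA1 leaned the other way from TRAP1. A_72_P700356 was lower in CR than in LW pigs by -0.43 ± 0.13 (adjusted p = 0.104), and the 8 probes ran from -0.44 to 0.03 with 4 at an unadjusted p < 0.05, as were 5 of all members and 10.1% of the table.

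The genes most like the chaperones were sought among 11400 gene names by the correlation of the gene mean over the 35 pigs, which share breed, climate and array. HSP90AA1 ran closest to PDIA3 (r = 0.85), a disulfide isomerase of the endoplasmic reticulum, then to HNRNPA3 (0.83) and CREB3 (0.82). HSP90B1 ran closest to LOC100522203 (r = 0.87), DNAJB11 (0.87), an endoplasmic reticulum co-chaperone, and STT3A (0.87), a subunit of the oligosaccharyltransferase. The dim HSP90AB1 probe reached no more than 0.63, with HMOX2. These values are descriptions, and 3 names were taken for each gene.

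Other genes of the pathway were counted by gene in HS minus TN, where 24.1% of all gene names were called higher and 16% lower. Of 24 measured further HSP90 co-chaperones, 9 were called higher and 2 lower, with a median of 0.14 against 0.05 over all gene names. DNAJC7, which carries tetratricopeptide repeats and binds HSP70 and HSP90, was highest (0.45 ± 0.13, adjusted p = 0.0064) and UNC45B, the myosin chaperone of striated muscle, lowest (-0.69 ± 0.14, adjusted p = 0.0012). Of 23 client kinases and receptors, 7 were called higher and 5 lower (median 0.08), from RIPK1 (0.37 ± 0.10, adjusted p = 0.0040) to IRAK1 (-0.44 ± 0.13, adjusted p = 0.0065), both kinases of innate immune signalling. Of 16 HSP90B1 clients, 2 were called higher and 2 lower (median 0.04), with TLR7, a receptor for single-stranded RNA, at 0.29 ± 0.14 (adjusted p = 0.0823) and IGF1 at -0.35 ± 0.11 (adjusted p = 0.0093). Of 7 SUGT1 partners, 2 were called higher and 1 lower (median 0.11), from the inflammasome sensor NLRP1 (0.25 ± 0.10, adjusted p = 0.043) to SKP1, a subunit of ubiquitin ligases (-0.53 ± 0.14, adjusted p = 0.0050).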

How the data were processed

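Members, gene lists and tests were chosen with earlier results of these data known. Per the file headers, the arrays were read with Agilent Feature Extraction 10.10.1.1, and each deposited scanner file gives an intensity per spot, as a median over pixels and after background subtraction. The authors quantile normalized the medians, kept expressed probes and deposited the log2 values used here. They differed from values recomputed here by a median of 0.02 (lowest correlation of an array 0.99987). R 4.3.3 and limma 3.58.1 were used (lmFit, eBayes, two-sided, threshold 0.05). HS minus TN and breed contrasts came from breed plus climate over 35 pigs, and within-breed effects and the interaction from 6 group means. Gene values are means over probes of 1 gene name. The fit was tested on simulated data. Values by pig are given for the brightest probe of a member and, where signs differ, the brightest of the other sign; A_72_P634756 and A_72_P051491 were added after their values were seen. The study's random effects of pen, day, father and mother were not fitted. The number of arrays limits the precision. RefSeq's gene table (Sscrofa11.1) gave the older symbol HSPCB. Alternatives were other normalizations, filters, slide, array weights, prior trend, an erythroid covariate, and leaving out breeds or single pigs.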

Additional observations from a re-analysis of the deposited data

Results flagged for a closer look

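For the 10 probes whose values by pig are given, 60 groups were examined for a single pig apart from the rest, and 9 had one (15.0%), where chance gives about 5%. CR HS pig 1 was below its group at FKBP4 A_72_P352858, with 11.54 against 12.35 to 12.59, and at TRAP1 A_72_P063446, with 7.0 against 7.89 to 8.28. LW HS pig 1 was low at FKBP4 A_72_P352858 (11.65 against 12.11 to 12.35). CR HS pig 1 and LW HS pig 1 were both on slide 1. At HSP90AA1 A_72_P700356, F1 HS pig 4 was high with 13.91 against 13.27 to 13.45. At HSP90B1 A_72_P588721, CR TN pig 3 was high with 12.45 against 11.75 to 11.92, and F1 TN pig 5 with 12.13 against 11.46 to 11.63. F1 TN pig 5 was low at HSP90AB1 O14652 (5.46 against 5.71 to 5.85). LW HS pig 5 was high at PTGES3 O5728 (8.58 against 7.70 to 7.93), and F1 TN pig 3 at TRAP1 O10647 (6.97 against 5.37 to 5.82).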

How the results depend on the processing

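Leaving out F1 pigs or adding the erythroid covariate ended most calls, while over 13 settings TRAP1 A_72_P063446 stayed at 0.42 to 0.65, HSP90AA1 A_72_P700356 at 0.30 to 0.45, CDC37 O10097 at 0.16 to 0.27 and HSP90B1 A_72_P588721 at 0.22 (without F1 pigs) to 0.50. Member probes called in HS minus TN over all breeds numbered 13, and 20 with the processed signal scaled on the 75th percentile, 23 with array weights, 0 with the erythroid covariate and 0 without F1 pigs. Over the whole table, 7842 probes were called higher and 5759 lower, and with that scaling 7609 and 6414. For array weights and single pigs left out, whole-table calls in HS minus TN are not given here. Changes of the member counts in those settings are therefore not read as particular to the members. By gene, 4 members were called, and 7 with array weights, 1 with the erythroid covariate and 0 without F1 pigs. For array weights and the covariate, calls over all gene names are not given here. In F1 pigs 16 probes were called, and 4 with the erythroid covariate. With array weights, 2 were called in LW pigs and 1 in F1 minus CR. Leaving out single pigs gave 10 to 23 for all breeds, 10 to 20 in F1 pigs (10 without F1 HS pig 6), 1 to 2 for CR minus LW (2 without LW TN pig 5), 0 to 1 for F1 minus CR (1 without CR HS pig 1) and 4 to 5 by gene; CR pigs, LW pigs, the interaction and F1 minus LW stayed at 0. SUGT1, at 0.00, turned to -0.042 with array weights (-0.040 as a gene mean), -0.029 with the erythroid covariate and -0.13 without F1 pigs, and ran from -0.036 to 0.041 without single pigs. The TRAP1 mean turned to -0.012 with the processed signal scaled on the 75th percentile, where O10647 was called lower at -0.68; it was also called with array weights and with slide as a block. Normexp, the filters, slide as a block and the prior trend kept these counts within 1.5 times. The cause was not tested. Calls over the whole table moved by more than 1.5 times in CR minus LW (421, and 1524 with array weights and 695 with the erythroid covariate), F1 minus CR (72 and 152 with array weights) and F1 minus LW (10, with 1 to 39 over the other settings and 0 to 19 without single pigs). No paired analysis was possible because the labels do not name the litters that tied TN to HS pigs, and pigs were numbered here in the order of the records. Restriction to probes found in the RefSeq protein was not run.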
